A study of Homo sapiens with 6 samples.

Results

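The miR-99/100 and miR-125 families are 2 groups of microRNAs that lie side by side in the human genome. They were followed here in melanoma cells treated with RSL3 combined with IFN-γ or with RSL3 alone. The members were 10 entries of the deposited table, chosen by name from these families out of 1596 mature miRNAs in all. MiR-99a-3p, a rare arm that also bears a family name, was not among them and is given beside them. They comprised 5 of the miR-99/100 family (hsa-miR-99a-5p, hsa-miR-99b-5p, hsa-miR-99b-3p, hsa-miR-100-5p and hsa-miR-100-3p) and 5 of the miR-125 family (hsa-miR-125a-5p, hsa-miR-125a-3p, hsa-miR-125b-5p, hsa-miR-125b-1-3p and hsa-miR-125b-2-3p). The prefix hsa- for human is left out from here on. All 10 had enough reads to be tested.

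A microRNA is cut from a hairpin in a longer transcript, first by Drosha and then by Dicer. Either side of the hairpin, the 5p or the 3p arm, can be loaded into an Argonaute protein, and bases 2 to 8 of the loaded arm, the seed, pair with messenger RNAs that are then repressed. The miR-99/100 family is known for repressing the growth kinase mTOR. The miR-125 family is the vertebrate counterpart of lin-4, the developmental timing gene of Caenorhabditis elegans, and human miR-125b is known for repressing p53 and the cell death factor BAK1. In vertebrates the families share primary transcripts with let-7, another regulator of developmental timing.

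The sequences are shown because the seed decides which members act as one family and because the differences outside it decide whether reads can be told apart. They come from RefSeq on GRCh38.p14, where all 10 members were found by name. They run 5′ to 3′ with the seed in capitals.
miR-100-5p: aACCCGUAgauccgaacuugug
miR-99a-5p: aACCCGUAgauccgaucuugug
miR-99b-5p: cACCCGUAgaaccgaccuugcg
miR-10a-5p: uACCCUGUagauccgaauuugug
miR-99b-3p: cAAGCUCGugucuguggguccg
miR-100-3p: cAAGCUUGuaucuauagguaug
miR-125b-5p: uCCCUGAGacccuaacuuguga
miR-125a-5p: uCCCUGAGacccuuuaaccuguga
miR-125a-3p: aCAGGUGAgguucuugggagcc
miR-125b-1-3p: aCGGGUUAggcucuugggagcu
miR-125b-2-3p: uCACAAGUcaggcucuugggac

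The 3 miR-99/100 members of the 5p arm share the seed ACCCGUA, and both miR-125 members of the 5p arm share CCCUGAG, whereas the 5 members of the 3p arm have 5 different seeds. Counting from the 5′ end, miR-99a-5p differs from miR-100-5p at a single base, A16U. MiR-99b-5p differs from miR-100-5p at 4 bases, A1C, U11A, A16C and U21C. MiR-125a-5p, at 24 bases against 22, differs from miR-125b-5p at 7 of the first 22 bases. These counts allow no gaps, so an inserted base shifts every base after it and can raise the count. MiR-10a-5p, of the related miR-10 family, is shown as a near relative outside the 10 members, with no search made for the nearest. With gaps allowed, miR-10a-5p is 3 edits away from miR-100-5p over the whole sequence, and without gaps 14 of the first 22 bases differ. Its seed is a different one, ACCCUGU. Among the 1425 miRNAs of the table with a RefSeq sequence, no other carried the seed of a 5p member, and miR-99a-3p carried the seed of miR-99b-3p. The sources used here do not give the mismatches allowed when reads were assigned, and the split of reads between miR-100-5p and miR-99a-5p is uncertain.

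The hairpins lie in 3 clusters, each with a let-7 hairpin between the other two. Coordinates are those of GENCODE 29 on GRCh38. On chromosome 11, MIR100 (chr11:122152229-122152308), MIRLET7A2 and MIR125B1 (chr11:122099757-122099844) are on the minus strand in introns of the noncoding gene MIR100HG. On chromosome 21, MIR99A (chr21:16539089-16539169), MIRLET7C and MIR125B2 (chr21:16590237-16590325) are on the plus strand in introns of MIR99AHG, also noncoding. On chromosome 19, MIR99B (chr19:51692612-51692681), MIRLET7E and MIR125A (chr19:51693254-51693339) are packed closely on the plus strand, in an intron of 1 transcript of the sperm gene SPACA6 and opposite an exon of the antisense RNA SPACA6P-AS. The gap between the miR-99/100 and the miR-125 hairpin is 572 bases on chromosome 19, but 52384 bases on chromosome 11 and 51067 bases on chromosome 21. MiR-125b-5p is made from both MIR125B1 and MIR125B2, so its reads cannot be assigned to a cluster, while the 3p arms miR-125b-1-3p and miR-125b-2-3p each mark 1 hairpin.

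Cells of both groups were exposed to RSL3, an inhibitor of the lipid peroxide reductase GPX4, and no untreated cells were analysed here, so that each comparison gives the effect of adding IFN-γ, the cytokine of activated T cells. The groups were RSL3 combined with IFN-γ (3 libraries) and RSL3 monotreatment (3 libraries), each sampled at 24 hours. The labels name the established human melanoma line A2058, whereas the text of the study names A375, another melanoma line. Which line was sequenced, and with it the dose, cannot be told apart here. Nothing in the sources says that replicates came from separate cultures, and the p-values below therefore rest on a spread between libraries that may be technical. Bulk libraries also cannot tell fewer cells of a kind from less RNA per cell.

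Total counts per library ran from 4383940 to 5367150 with RSL3 and IFN-γ, and from 4897890 to 6513382 with RSL3 alone. Of a list of 7 miRNAs that mark melanocytes and melanoma, 4 had at least 10 reads in every library. Their summed level was 94550 to 148308 CPM with RSL3 and IFN-γ, against 86477 to 116385 CPM with RSL3 alone, nearly all of it miR-146a-5p. The height of this sum over the lists of other cells thus rests on a single miRNA. Summed levels of markers of other cells reached at most 1334 CPM, in the muscle list of RSL3 replicate 3, and blood, liver and epithelial lists stayed at or under 332 CPM. Log2 fold changes followed GC content, with a median of −0.32 in the tested miRNAs of 15.8% to 45.5% GC and of 0.36 in those of 55.0% to 95.2% GC.

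Together the 10 members took 5.75%, 9.02% and 6.37% of all counts in the libraries with RSL3 and IFN-γ, against 5.53%, 5.37% and 7.08% in those with RSL3 alone. The largest of these shares has an exact Clopper-Pearson 95% interval of 8.993% to 9.046%, and that of the smallest is 5.349% to 5.389%. These intervals cover counting error only, and at 7.05% ± 1.74 against 5.99% ± 0.944 (SD, n = 3 each) the spread between libraries was far wider. The groups overlapped.

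MiR-100-5p was the most abundant member, at rank 4 of all tested miRNAs, and miR-99b-5p and miR-99a-5p followed. Every read of a mature miRNA is a whole molecule of about the same length, so levels are compared here in CPM, the reads of a miRNA relative to the library's total after TMM scaling, which sets the bulk of miRNAs equal between libraries. The order of the members by mean CPM was miR-100-5p, miR-99b-5p, miR-99a-5p, miR-125b-5p, miR-99b-3p, miR-125a-5p, miR-125b-1-3p, miR-125b-2-3p, miR-125a-3p and miR-100-3p. Most neighbours in this order had ranges over the 6 libraries that did not overlap. The exceptions were miR-99a-5p and miR-125b-5p, whose ranges overlapped although miR-99a-5p was higher in 6 of 6 libraries, and miR-99b-3p and miR-125a-5p, whose order held in 4 of 6. The ligation steps of a small RNA library favour some sequences over others, so the order describes reads rather than molecules in the cell.

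**Figure D1:**
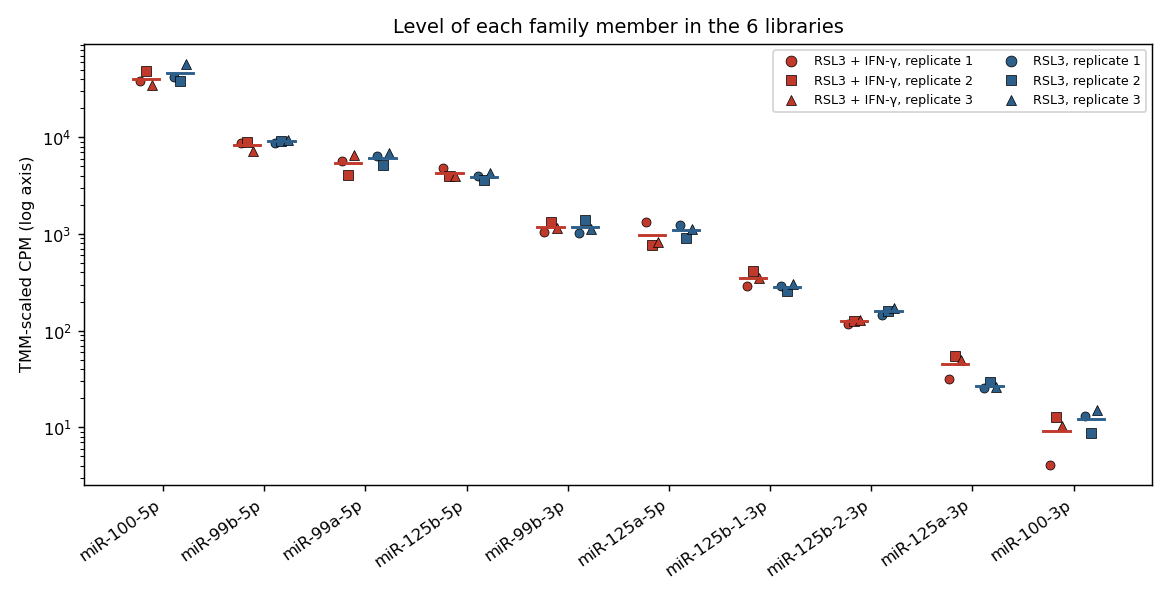
TMM-scaled CPM (log axis) of the 10 members, ordered by mean level, in the 3 libraries with RSL3 and IFN-γ (red, left) and the 3 with RSL3 alone (blue, right), with symbols for replicate numbers and a bar at each group's mean. The groups overlap for all members but miR-125a-3p, at 31.4 to 54.0 against 25.3 to 29.3 CPM, and miR-125b-2-3p, at 117 to 129 against 146 to 170 CPM.

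No member passed the test for a difference between the treatments. With edgeR's quasi-likelihood test over all 758 tested miRNAs, 0 of 10 members rose and 0 fell at a Benjamini-Hochberg adjusted p under 0.05, whereas 4.75% of all tested miRNAs passed, 2.51% upwards and 2.24% downwards. DESeq2, limma on log2(CPM + 5) and edgeR with the replicate number as a block also called 0 members, where they called 12.5%, 6.73% and 10.8% of all tested miRNAs. Without RSL3 replicate 1, edgeR's test called 0 miRNAs in all, with 124 past an unadjusted p of 0.05. At an unadjusted p under 0.05, miR-125a-3p was the only member, against 12.8% of all tested miRNAs on the higher side and 13.1% on the lower side. Groups did not overlap in 2 of 10 members, or in 29.8% of all tested miRNAs. The median log2 fold change was −0.14 over the members and −0.04 over all tested miRNAs.

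Among the miR-99/100 members of the 5p arm, the groups overlapped in each case. MiR-100-5p had 38777, 48147 and 34744 CPM with RSL3 and IFN-γ, against 42272, 38100 and 57530 CPM with RSL3 alone. The lowest library was replicate 3 of the combined treatment and the highest was RSL3 replicate 3, and the other 4 lay between them in mixed order. Its log2 fold change was −0.18 (95% interval −0.72 to 0.36, adjusted p = 0.679).

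MiR-99b-5p, from the cluster on chromosome 19, had 8849, 8933 and 7300 CPM with RSL3 and IFN-γ, against 8781, 9144 and 9403 CPM with RSL3 alone. It was the steadiest of the 5p members in the RSL3 group, with a coefficient of variation of 3.43%, and only replicate 3 of the combined treatment stood apart from the other libraries. Its log2 fold change was −0.12 (95% interval −0.58 to 0.33, adjusted p = 0.737).

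MiR-99a-5p, from chromosome 21, had 5736, 4060 and 6599 CPM with RSL3 and IFN-γ, against 6455, 5225 and 6824 CPM with RSL3 alone. Replicate 2 was the lowest library of both groups. Its log2 fold change was −0.17 (95% interval −0.72 to 0.37, adjusted p = 0.693). For all 5 members of the 5p arm, miR-125a-5p and miR-125b-5p included, the 95% intervals of the log2 fold change lay between −0.74 and 0.58, which leaves out a change of 2-fold in either direction under this scaling.

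The make-up of the miR-99/100 family overlapped between the groups. MiR-100-5p made up 72.7%, 78.7% and 71.4% of the reads of the 3 members of the 5p arm with RSL3 and IFN-γ, against 73.5%, 72.6% and 78.0% with RSL3 alone. MiR-99a-5p made up 10.7%, 6.64% and 13.6% of them with RSL3 and IFN-γ, against 11.2%, 9.96% and 9.25% with RSL3 alone. Reads of miR-100-5p per read of miR-99a-5p, its neighbour by a single base, ran from 5.26 to 11.9 in the combined treatment libraries and from 6.55 to 8.43 in the RSL3 libraries, so the ratio between these near-identical sequences was not constant across libraries.

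The 3p arms of this family differed widely in level. MiR-99b-3p had 1043, 1323 and 1162 CPM with RSL3 and IFN-γ, against 1015, 1392 and 1136 CPM with RSL3 alone. Means of 1176 ± 141 and 1181 ± 193 CPM (SD, n = 3 each) were nearly the same, and the log2 fold change was −0.01 (95% interval −0.51 to 0.50, adjusted p = 0.985).

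MiR-100-3p, the rarest of the 10, had 4.11, 12.8 and 10.3 CPM with RSL3 and IFN-γ, against 13, 8.72 and 15.1 CPM with RSL3 alone. The lowest value rests on 17 reads, which counting error alone leaves between 9.90 and 27.2 (exact Poisson 95% interval). The log2 fold change was −0.42 (95% interval −1.34 to 0.51, adjusted p = 0.57), and a 2-fold lower level is inside that interval. MiR-99a-3p, the arm that shares a seed with miR-99b-3p, had 5 to 18 reads in a library and a log2 fold change of 0.38 (95% interval −0.79 to 1.56).

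MiR-125b-5p, the main member of the miR-125 family and a repressor of p53, had 4770, 4032 and 4000 CPM with RSL3 and IFN-γ, against 3982, 3583 and 4232 CPM with RSL3 alone. Replicate 1 of the combined treatment was the highest library, and the other 5 ran from 3583 to 4232 CPM. A log2 fold change of 0.12 was fitted (95% interval −0.35 to 0.58, adjusted p = 0.757).

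MiR-125a-5p had 1334, 773 and 836 CPM with RSL3 and IFN-γ, against 1233, 919 and 1119 CPM with RSL3 alone. The combined treatment held both the highest and the lowest libraries, with a coefficient of variation of 31.4% against 14.5% in the RSL3 group. A log2 fold change of −0.15 was fitted (95% interval −0.74 to 0.44, adjusted p = 0.754), or of −0.45 (adjusted p = 0.256) without replicate 1 of the combined treatment.

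As a share of all counts the miR-125 members of the 5p arm were separated by treatment, and after TMM scaling they were not. Their summed share was 0.576%, 0.639% and 0.558% with RSL3 and IFN-γ, against 0.449%, 0.411% and 0.469% with RSL3 alone. How many of all tested miRNAs are separated as a share of all counts was not counted, so the separation is not read as particular to these members. With library totals, 533 of all 758 tested miRNAs had positive log2 fold changes. The summed share of the miR-99/100 members of the 5p arm overlapped, at 5.04%, 8.12% and 5.61% against 4.95%, 4.79% and 6.47%. Scaled by TMM, the sum was 6104, 4805 and 4835 CPM with RSL3 and IFN-γ, against 5215, 4502 and 5352 CPM with RSL3 alone. TMM factors were 0.944, 1.33 and 1.15 in the combined treatment libraries, against 0.861, 0.913 and 0.877 in the RSL3 libraries, so the scaling and the treatment run together. With library totals in place of TMM, the median over all tested miRNAs moved to a log2 fold change of 0.33, all 10 members had positive values, where 7 of 10 were negative with TMM, and miR-125b-5p stood at 0.48 on the log2 scale (adjusted p = 0.164 from edgeR's test). Past an unadjusted p of 0.05 on the higher side were then 2 members, miR-125a-3p and miR-125b-1-3p, against 25.6% of all tested miRNAs.

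**Figure D2:**
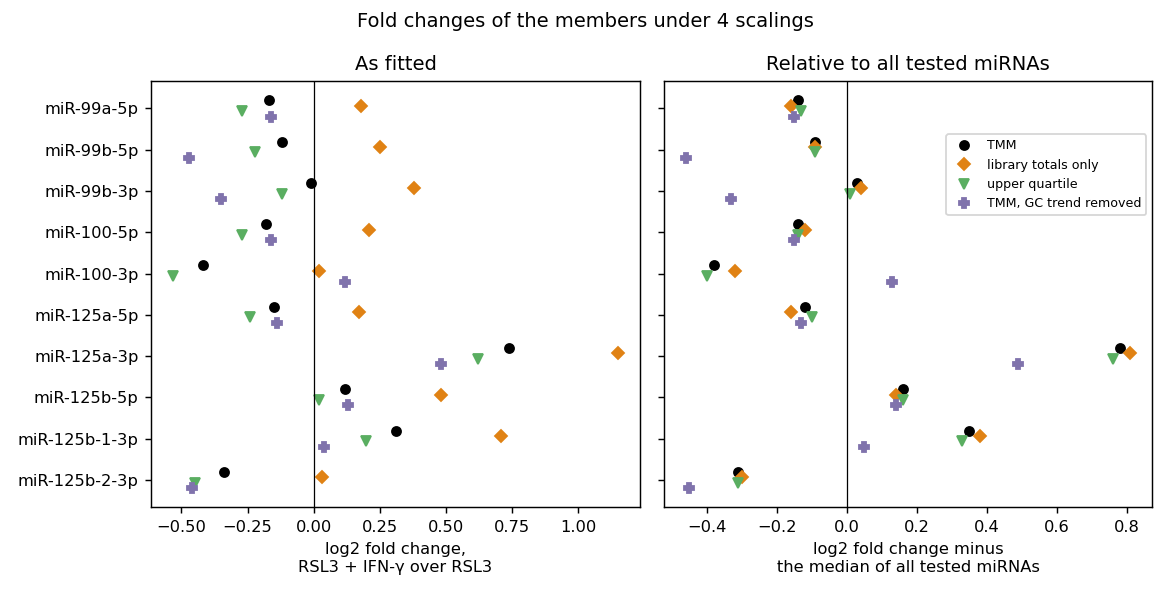
Log2 fold changes of the members, RSL3 combined with IFN-γ over RSL3, under TMM, library totals, upper-quartile factors and TMM with the GC trend removed, as fitted (left) and after subtracting the median of all tested miRNAs under the same setting (right). With library totals all 10 points lie above 0 on the left, while on the right miR-100-5p lies at −0.15 to −0.12 and miR-125b-5p at 0.14 to 0.16 under all 4. Removal of the GC trend still moves other members on the right, such as miR-99b-5p, from −0.09 with TMM to −0.46, and miR-100-3p, from −0.38 to 0.13.

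MiR-125a-3p, the less abundant arm of its hairpin, had the largest log2 fold change of the 10. It had 31.4, 54.0 and 49.4 CPM with RSL3 and IFN-γ, against 25.3, 29.3 and 26.3 CPM with RSL3 alone. All 3 combined treatment libraries were above all 3 RSL3 libraries, and replicate 1 lay near the RSL3 range. These values rest on 130, 316 and 306 reads with RSL3 and IFN-γ, against 128, 131 and 150 reads with RSL3 alone.

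The log2 fold change of miR-125a-3p was 0.74 (95% interval 0.13 to 1.35, unadjusted p = 0.0212 and adjusted p = 0.132 by edgeR's quasi-likelihood test), so it did not pass. The adjusted p was 0.0833 with DESeq2, 0.153 with limma and 0.105 with the replicate number as a block. Without replicate 1 of the combined treatment it passed, at a log2 fold change of 0.93 and an adjusted p = 0.0417. In that fit 45 of all 815 tested miRNAs rose and 50 fell. Over the other libraries left out in turn the log2 fold change of miR-125a-3p stayed above 0, from 0.58 upwards. Its sequence has 59.1% GC, as has that of miR-125b-1-3p, whose log2 fold change was 0.31. MiR-99b-5p and miR-99b-3p have 63.6% GC, and their log2 fold changes were −0.12 and −0.01. Removing the GC trend brought the log2 fold change of miR-125a-3p to 0.48 (adjusted p = 0.265), and the part of GC content in the difference was not tested otherwise.

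The 3p arms of the miR-125b hairpins had log2 fold changes of opposite sign with TMM scaling, although with library totals they were 0.71 and 0.03. MiR-125b-1-3p, which marks the hairpin on chromosome 11, had 287, 415 and 352 CPM with RSL3 and IFN-γ, against 292, 257 and 302 CPM with RSL3 alone. Replicate 1 of the combined treatment lay within the RSL3 range and the other 2 lay above it. The log2 fold change was 0.31 (95% interval −0.20 to 0.81, adjusted p = 0.422).

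MiR-125b-2-3p, which marks the hairpin on chromosome 21, had 117, 127 and 129 CPM with RSL3 and IFN-γ, against 146, 158 and 170 CPM with RSL3 alone. All combined treatment libraries were below all RSL3 libraries. The log2 fold change was −0.34 (95% interval −0.81 to 0.12, adjusted p = 0.317).

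The ratio of these arms within a library does not depend on the scaling. Reads of miR-125b-1-3p per read of miR-125b-2-3p numbered 2.44, 3.26 and 2.73 with RSL3 and IFN-γ, against 2, 1.62 and 1.78 with RSL3 alone. The groups did not overlap, and the means of 2.81 ± 0.417 and 1.80 ± 0.191 (SD, n = 3 each) differed by 1.56-fold. This ratio was chosen after its values were seen. The exact two-sided permutation test gave p = 0.1, the smallest value that 3 libraries against 3 allow, so this design could not reach a threshold of 0.05. The arms differ in GC content, at 59.1% for miR-125b-1-3p and 54.5% for miR-125b-2-3p. With the GC trend removed their log2 fold changes were 0.04 and −0.46. In that fit 0 members were past an unadjusted p of 0.05 on the higher side, against 10.9% of all miRNAs fitted. On the lower side there were 2, miR-125b-2-3p and miR-99b-5p, against 11.6%, or 12.2% with the replicate block as well.

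**Figure D3:**
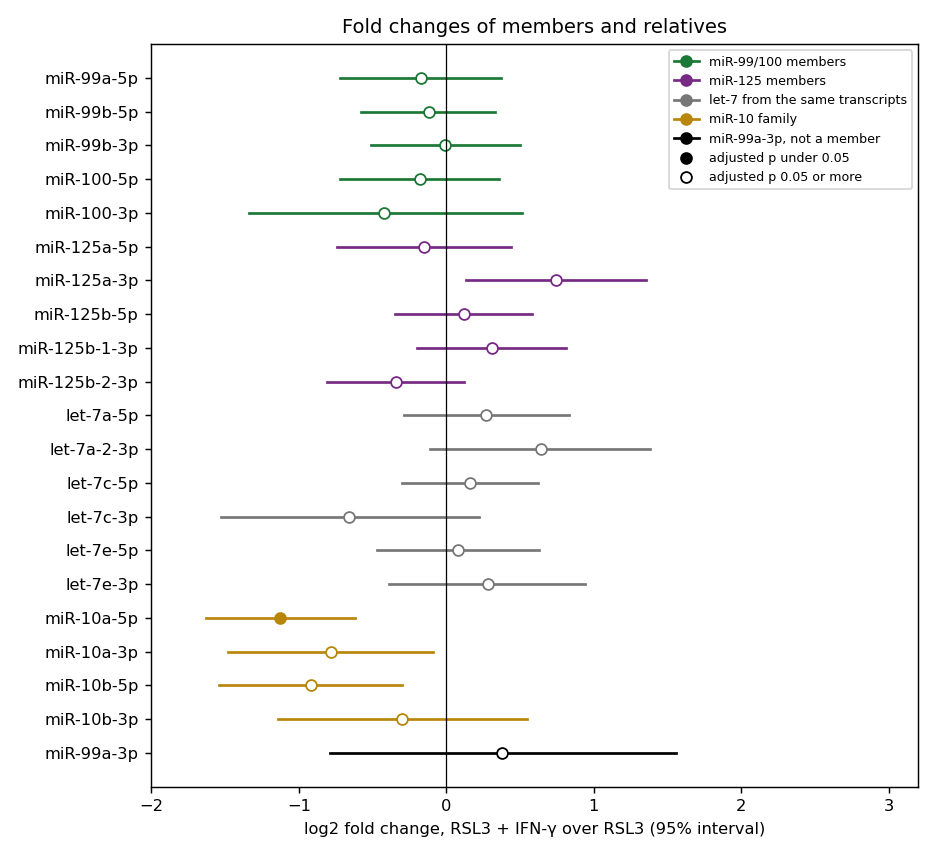
Log2 fold changes, RSL3 combined with IFN-γ over RSL3, of the 10 members, the let-7 arms of the same transcripts, the miR-10 family and miR-99a-3p, with 95% intervals from edgeR's quasi-likelihood test (filled points: adjusted p under 0.05). MiR-10a-5p, at −1.13, is the filled point, and among the members the interval of miR-125a-3p alone leaves out 0.

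The hairpins of miR-100, miR-99a, miR-99b and miR-125a, whose arms were compared, favoured the 5p arm in every library, to very different degrees. Reads of the 5p arm per read of the 3p arm numbered 9437, 3757 and 3362 for miR-100 with RSL3 and IFN-γ, against 3246, 4368 and 3821 with RSL3 alone. For miR-99b, whose 5p arm has the same seed, they numbered 8.49, 6.75 and 6.28 with RSL3 and IFN-γ, against 8.65, 6.57 and 8.28 with RSL3 alone. Hairpins of 1 family thus lay far apart in the use of their arms in every library, and in both of them the treatments overlapped.

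For miR-125a, 5p reads per 3p read numbered 42.5, 14.3 and 16.9 with RSL3 and IFN-γ, against 48.8, 31.4 and 42.6 with RSL3 alone. Replicate 1 of the combined treatment lay in the RSL3 range and the other 2 lay well below it. Between libraries of equal replicate number, the combined treatment was lower in 3 of 3 pairs. No source says what these numbers stand for, and how many of the 181 hairpins had 1 direction in all pairs was not counted. On the scale of log2 of 3p over 5p reads the change was 0.89 (95% interval −0.20 to 1.97, adjusted p = 0.354 from limma over 181 hairpins). With the replicate block the adjusted p was 0.297, and without replicate 1 of the combined treatment the change was 1.37 (adjusted p = 0.124). Changes were −0.37 for miR-100, 0.13 for miR-99b and 0.67 for miR-99a, whose 3p arm has few reads. None of the 4 passed at an adjusted p under 0.05, and neither did any other hairpin (0% of 181), while 19.3% were past an unadjusted p of 0.05 with limma, the only tool run on arms. The groups overlapped for all 4 hairpins and did not for 22.7% of the 181.

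**Figure D4:**
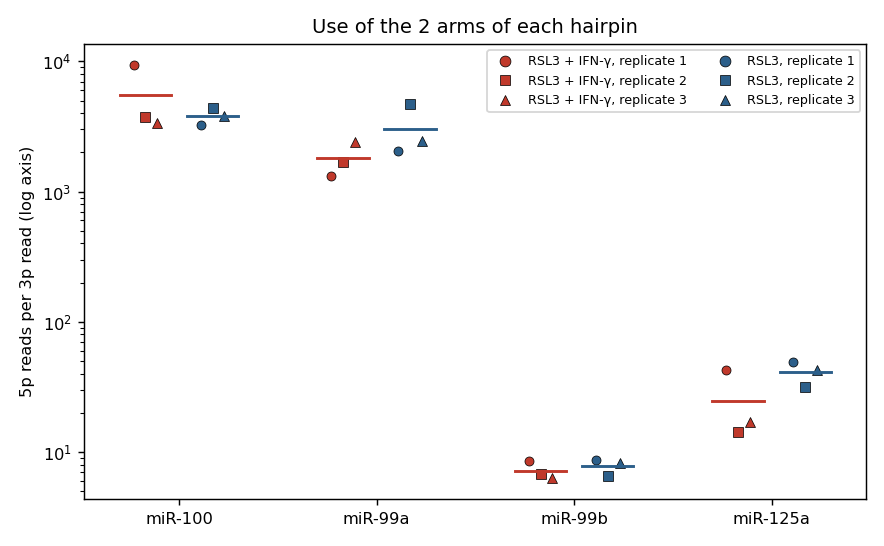
Reads of the 5p arm per read of the 3p arm (log axis) of the hairpins of miR-100, miR-99a, miR-99b and miR-125a, in the libraries with RSL3 and IFN-γ (red, left) and RSL3 alone (blue, right), with symbols for replicate numbers and a bar at each group's arithmetic mean. MiR-99b lies at 6.28 to 8.65 in every library, and miR-100 at 3246 to 9437.

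Ratios between members within a library, which need no scaling, were compared for 6 pairs. Reads of miR-125a-5p per read of miR-99b-5p, which leave the same transcript on chromosome 19, numbered 0.117 ± 0.0322 with RSL3 and IFN-γ and 0.120 ± 0.0199 with RSL3 alone (SD, n = 3 each). Reads of let-7e-5p, another product of that transcript, per read of miR-99b-5p numbered 0.120 ± 0.0322 with RSL3 and IFN-γ and 0.102 ± 0.0227 with RSL3 alone. Both ratios overlapped between the groups, and over the libraries left out in turn the log2 change of let-7e-5p over miR-99b-5p ran from 0.02 to 0.38. The 3p arms of the same cluster lay further apart, at log2 fold changes of 0.74 for miR-125a-3p and −0.01 for miR-99b-3p.

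Across clusters the ratios also overlapped between the groups. Reads of miR-125b-5p per read of miR-125a-5p numbered 4.53 ± 0.852 with RSL3 and IFN-γ and 3.64 ± 0.356 with RSL3 alone (SD, n = 3 each), higher in 3 of 3 pairs of equal replicate number (exact permutation within pairs p = 0.25, the smallest that 3 pairs allow). Reads of miR-100-5p per read of miR-99b-5p numbered 4.84 ± 0.509 with RSL3 and IFN-γ and 5.03 ± 0.994 with RSL3 alone. The log2 changes of the 6 ratios ran from −0.06 to 0.30, with exact permutation p-values of 0.3 to 0.9 and p = 0.9 for each after adjustment over the 6, where the smallest unadjusted value possible is 0.1.

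None of the 6 let-7 arms made from the same transcripts passed edgeR's test, and none was past an unadjusted p of 0.05. DESeq2 and limma called 0 as well. Past an unadjusted p of 0.05 on the higher side there were 2 with library totals, 1 with the GC trend removed and 2 with that and the replicate block. The shares of all miRNAs fitted were 25.6%, 10.9% and 11.3%. On the lower side was let-7c-3p when RSL3 replicate 2 was left out (log2 fold change −0.93, unadjusted p = 0.0302 from edgeR's test), where 118 of all 816 tested miRNAs were. Let-7a-5p, a repressor of RAS and MYC, had the highest level of them, at 12278 ± 2061 CPM with RSL3 and IFN-γ and 10193 ± 2543 CPM with RSL3 alone (SD, n = 3 each), which is 0.27 on the log2 scale of fold changes. With the GC trend removed it stood at 0.76 (adjusted p = 0.0927), and with library totals at 0.65 (adjusted p = 0.124). It is also made from hairpins on other chromosomes and differs from let-7c-5p and let-7e-5p by a single base each (A19G and U9G), so its reads do not measure the cluster on chromosome 11 alone.

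The 3p arms of let-7, each of which marks a single hairpin, set the clusters side by side. On chromosome 11, log2 fold changes were −0.42 for miR-100-3p, 0.64 for let-7a-2-3p and 0.31 for miR-125b-1-3p. On chromosome 21 they were 0.38 for miR-99a-3p, −0.66 for let-7c-3p and −0.34 for miR-125b-2-3p. On chromosome 19 they were −0.01 for miR-99b-3p, 0.28 for let-7e-3p and 0.74 for miR-125a-3p. Signs were mixed in each cluster with TMM scaling, on chromosome 19 only by the −0.01 of miR-99b-3p. With library totals they stayed mixed on chromosome 21, where miR-99a-3p was at 0.73, let-7c-3p at −0.26 and miR-125b-2-3p at 0.03. They were then not mixed on chromosome 11, where miR-100-3p was at 0.02, or on chromosome 19, where miR-99b-3p was at 0.38. With the GC trend removed, the arms in the same order were at 0.12, 0.5 and 0.04 on chromosome 11. On chromosome 21 they were at 0.26, −0.56 and −0.46, and on chromosome 19 at −0.35, 0.16 and 0.48. None of the 9 arms passed edgeR's test under these settings. Of let-7c-3p there were 16 to 52 reads in a library.

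Of the 4 arms of the miR-10 family, a near relative of miR-99/100 by sequence, 1 fell in edgeR's test. MiR-10a-5p had 7068, 5087 and 5057 CPM with RSL3 and IFN-γ, against 13532, 12138 and 11942 CPM with RSL3 alone. It fell, with a log2 fold change of −1.13 (95% interval −1.63 to −0.62, adjusted p = 0.0315), and the groups were far apart. It did not pass once RSL3 replicate 1 (adjusted p = 0.172), combined treatment replicate 2 (0.0912) or combined treatment replicate 3 (0.092) was left out, or the GC trend was removed (log2 fold change −0.99, adjusted p = 0.0521, or 0.0373 with the replicate block as well). MiR-10b-5p had a log2 fold change of −0.92 (adjusted p = 0.075, or 0.0375 with the replicate block). The difference between miR-10a-5p and miR-100-5p was not tested. The interval of miR-100-5p, −0.72 to 0.36, overlaps that of miR-10a-5p only from −0.72 to −0.62. Such an overlap does not decide whether they changed alike.

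By pattern over the 6 libraries, the miRNAs most like miR-100-5p among 463 others with a mean of at least 10 CPM were miR-132-3p (Pearson r = 0.955 on log2 CPM), miR-517a-3p and miR-517b-3p (r = 0.905 each, with equal counts in every library). For miR-125b-5p they were miR-4521 (r = 0.882), miR-139-5p (r = 0.879) and miR-146b-5p (r = 0.865). These are the highest of 463 values over 6 points that share depth and scaling, and are given as a description with no test.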

How the data were processed

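Members and lists were chosen with earlier results of these data known. The deposited table holds the authors' raw read counts per mature miRNA beside a signal, deposited by the authors, in which these counts are divided by a library total (the table sums to 1.03 to 1.16 times that total). It also holds the authors' own fold changes and p-values, which were not used, nor was the signal. Per the submitters' processing notes, the tools were bcl2fastq, edgeR and Bowtie 1.1.1, and the build GRCh38. The treatment of reads that match more than 1 miRNA is not stated in the sources at hand. Some entries, such as miR-365a-3p and miR-365b-3p, had equal values in every library, and whether shared reads were counted for each entry was not tested. Shares of all counts given here use the table sum. That sum was 1.09, 1.15 and 1.16 times the library total with RSL3 and IFN-γ, against 1.04, 1.03 and 1.13 times with RSL3 alone.

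The quasi-likelihood test of edgeR 4.0.16 (R 4.3.3, TMM factors, two-sided) was applied to the raw counts of the 758 of 1596 miRNAs kept by its filter (minimum count 10, minimum total 15). P-values were adjusted by Benjamini-Hochberg over all of them and called under 0.05. Standard errors behind the 95% intervals are the log2 fold change over the root of the F statistic. Arm ratios were log2 of 3p over 5p reads with 0.5 reads added, tested with limma 3.58.1 where both arms averaged 10 reads or more. Ratios between members were compared by exact permutation (scipy 1.17.1). Alternatives were other scalings, no filter, DESeq2 1.42.0, limma on log2(CPM + 5), the replicate block, removal of a loess trend on GC content of the RefSeq mature sequence (found for 89.3% of the table) and leaving out each library. Scripts were tested on simulated data.

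Both groups use replicate numbers 1 to 3, and no source says what these stand for. Across miRNAs, the deviations from the group mean in libraries of equal number correlated at 0.227, 0.217 and 0.207, each above 0.1, which was taken as a sign of pairing. The main tests nonetheless left the replicate number out, since no source names a block. Fits with the replicate block are given as an alternative. Named were the 10 members, the let-7 arms of the same transcripts, the miR-10 family, miRNAs sharing a member's seed, and for miR-100-5p and miR-125b-5p the 3 miRNAs of most similar pattern.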

Additional observations from a re-analysis of the deposited data

How the results depend on the processing

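Of 150 values of the members' log2 fold changes under the alternatives, 136 kept their sign and their side of the threshold, 13 turned their sign and 1 passed (miR-125a-3p without replicate 1 of the combined treatment). With library totals in place of TMM, log2 fold changes were 0.18 for miR-99a-5p, 0.25 for miR-99b-5p, 0.38 for miR-99b-3p, 0.21 for miR-100-5p, 0.02 for miR-100-3p, 0.17 for miR-125a-5p, 0.03 for miR-125b-2-3p and 0.07 for miR-10b-3p, against a median of 0.33 over all tested miRNAs. MiR-99b-3p was also at 0.03 with RLE size factors and DESeq2 and at 0.01 without the filter on low counts, miR-100-3p at 0.12 with the GC trend removed, and let-7e-5p at −0.02 with upper-quartile factors. Leaving out 1 library at a time gave −0.11 to 0.12 for miR-99b-3p, −0.11 to 0.17 for let-7e-5p, −0.64 to 0.06 for miR-10b-3p and −0.64 to 0.09 for the log2 arm ratio of miR-100. It gave −0.26 to 0.14 for miR-125a-5p over miR-99b-5p, −0.17 to 0.11 for miR-100-5p over miR-99b-5p and −0.31 to 0.28 for miR-100-5p over miR-99a-5p. Among values that kept their sign, it gave −0.45 to −0.01 for miR-125a-5p, −0.75 to −0.10 for miR-100-3p, 0.58 to 0.93 for miR-125a-3p, 0.59 to 1.37 for the log2 arm ratio of miR-125a and 0.35 to 0.90 for that of miR-99a.

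Members that rose numbered 0 to 1 over the libraries left out, the 1 being miR-125a-3p without replicate 1 of the combined treatment, where 45 of 815 tested miRNAs rose. Members past an unadjusted p of 0.05 on the higher side numbered 2 with library totals, 0 with the GC trend removed (also with the block) and 0 to 1 over the libraries left out, with none left without RSL3 replicate 1 or 3 or without replicate 2 or 3 of the combined treatment. On the lower side there were 2 with the GC trend removed, with or without the block, namely miR-99b-5p (−0.47) and miR-125b-2-3p (−0.46), both chosen after their values were seen. With the replicate block no member passed edgeR's test and 1 was past an unadjusted p of 0.05. The block called 39 miRNAs that rose and 43 that fell, against 19 and 17 without it, and beside miR-10b-5p it changed no other call named here. All tested miRNAs that rose and fell numbered 60 and 11 with library totals, 50 and 56 without the filter, 52 and 43 with DESeq2, 4 and 1 with the GC trend removed, 9 and 5 with that and the block, and 0 to 45 and 0 to 50 over the libraries left out (0 and 0 without RSL3 replicate 1, with 124 past an unadjusted p of 0.05). Of the let-7 arms and the miR-10 family, 2 fell without the filter, with DESeq2 and with the block, 0 with the GC trend removed (a fit without miR-10b-5p, for which no sequence was used), and 0 to 2 over the libraries left out. MiR-10a-5p, at −1.06 each time, did not pass without RSL3 replicate 1 or without replicate 2 or 3 of the combined treatment. The cause of these shifts was not tested. With 17 to 86 reads of miR-100-3p in a library, depth limits that member.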
